A study of Sus scrofa with 24 samples.

Results

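The comparison set bronchial epithelial cultures of the pig that received only PBS, the unstimulated control, at 24 h against 2 h. It rests on 8 of the study's 24 paired-end RNA-seq libraries, 4 per time, taken by their PBS labels, and on 14172 of 25880 pig genes that had enough counts to be tested. The cells came from wild-type pigs aged 1 month, were freed from the bronchi with proteases, grew to confluency on collagen-coated porous membranes and were then kept with their upper side in air, an arrangement called air-liquid interface. All 8 cultures had 1 h with DMSO, the vehicle of the study's p38 kinase inhibitor SB203580, before PBS was given for 2 h or 24 h. The study's other groups received 100 ng/ml flagellin, the protein of the bacterial flagellum, for the same times, after DMSO or after 20 µM SB203580, with 4 libraries in each of the 6 groups. Neither the labels nor the design text gives the last change of medium or the clock hour of a harvest. Time since PBS, time since handling and hour of the day therefore cannot be told apart in this comparison. The labels do not say whether the replicates were separate animals or cultures. The spread behind each p-value, estimated over all 24 libraries, may therefore be technical within each of the 2 sets of replicates described below.

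Epithelial cells read the oxygen around them through prolyl hydroxylases, which mark the hypoxia-inducible factors (HIF) for destruction; when oxygen falls, HIF persists and switches on glucose uptake, glycolysis and lactate export. Handling, fresh medium and serum switch on immediate early genes such as FOS and the NR4A receptors, whose transcripts are short-lived. The aryl hydrocarbon receptor (AHR), which binds planar ligands of the environment, of tryptophan breakdown and of culture media, drives the cytochromes CYP1A1 and CYP1B1. The circadian clock is a loop of transcription factors in which CLOCK and BMAL1 switch on their own repressors over a daily cycle.

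PBS libraries held 26345945 to 34112984 counts in pig genes, and 3 counts, taken as the floor of detection, equalled 0.0879 to 0.114 CPM, the counts of a gene scaled to a common library size. Replicates 1 and 2 differed from replicates 3 and 4 in each time: the Y-linked gene EIF1AY was at 22.0 to 32.8 CPM in the 4 PBS libraries of replicates 1 and 2 and at 0 in those of replicates 3 and 4. The 2 sets thus came from different animals or pools of animals. The first principal component of the 8 libraries, 65.0% of the variance of the 1000 most variable genes, placed replicates 1 and 2 apart from replicates 3 and 4, and the second, 17.8%, placed 2 h apart from 24 h. Mitochondrially encoded genes took 3.35% to 6.15% of counts at 2 h and 3.03% to 5.52% at 24 h, with an exact permutation p of 0.771 over 4 against 4 libraries (two-sided, unpaired). Of 13 such genes tested, 0 were called by edgeR or DESeq2 (3 at an unadjusted p under 0.05), and their median log2 fold change was -0.52. In all 4 numbers 9 were lower at 24 h, against 19.5% of all genes tested. In a fit with the replicate number as a block 7 fell, against 11.4% of all. Replicate 2 at 2 h stood apart from replicate 1, with ciliated cell genes at a mean log2 CPM of 0.64 against 2.31, and counts without it are given beside the results it moves.

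Between 2 h and 24 h, 1440 of 14172 genes (10.2%) passed edgeR's quasi-likelihood test at an adjusted p under 0.05. Of these, 748 rose (5.28% of the genes tested) and 692 fell (4.88%), with median log2 fold changes of 0.62 and -0.53 where the median of all genes was -0.01. A change of at least 2-fold was reached by 177 genes that rose and 102 that fell. The test favours genes whose libraries differ alike, so agreement of the 4 replicate numbers among called genes follows largely from the selection. Of the 748 that rose, 740 were higher at 24 h in each number, where 19.0% of all genes tested were. Of the 692 that fell, 674 were lower in each, against 19.5% of all. Separation of the groups is favoured in the same way. The 4 libraries of 24 h lay above those of 2 h without overlap for 690 of the 748, and for 1266 of all genes tested (8.93%). They lay below them for 623 of the 692, and for 1168 of all (8.24%). A further 4044 genes moved 1 way in all 4 numbers without passing the test.

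Adding the replicate number as a block to the model raised the counts to 1565 genes up (11.0%) and 1618 down (11.4%), and all 748 and 692 were among them. Fitting the 8 PBS libraries alone lowered them to 306 and 226. Leaving out 1 library lowered the counts by over 1.5 times in 4 cases. Without replicate 2 at 2 h, 482 genes rose and 457 fell, and without replicate 3 at 2 h, 464 and 419. Without replicate 2 at 24 h, 464 rose and 371 fell, and without replicate 3 at 24 h, 479 and 414. The test called 328 of the 748 and 283 of the 692 in each of the 8 fits that left out 1 PBS library, and the genes described below are of that kind unless a lost call is given.

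Genes of glycolysis and of the response to low oxygen rose together. Of 35 such genes tested, 24 rose and 0 fell, against 5.28% and 4.88% of all genes, and 30 were higher at 24 h in all 4 replicate numbers. Their median log2 fold change was 0.99, where that of all genes was -0.01. The mean log2 CPM over the list was 6.59, 6.68, 6.79 and 6.85 in replicates 1 to 4 at 2 h and 7.76, 7.92, 7.93 and 7.73 at 24 h. No library of 24 h overlapped the range of 2 h. In bulk RNA, more cells that express a gene and more RNA per cell cannot be told apart, here and in the groups that follow.

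Transporters of lactate and sugars were among the genes that rose most. SLC16A3, the monocarboxylate transporter MCT4 that exports lactate, was at 2.49, 5.29, 5.92 and 5.63 CPM in replicates 1 to 4 at 2 h and 48.5, 55.9, 65.8 and 57.1 CPM at 24 h. Every library of 24 h lay above every library of 2 h (log2 fold change 3.55, SE 0.36, adjusted p = 1.6e-05). SLC2A3, the high-affinity glucose transporter GLUT3, named here by its position, was at 6.1, 8.17, 5.18 and 9.19 CPM in replicates 1 to 4 at 2 h and 104, 132, 35.3 and 27.9 CPM at 24 h. The groups did not overlap (log2 fold change 3.38, SE 0.66, adjusted p = 0.00268), and at 24 h replicates 1 and 2 lay above replicates 3 and 4. SLC2A5, a fructose transporter, was at 0.186, 0.688, 0.175 and 0.509 CPM at 2 h and 3.82, 2.65, 4.64 and 3.2 CPM at 24 h, low levels that again did not overlap (log2 fold change 3.17, SE 0.61, adjusted p = 0.00253).

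**Figure D1:**
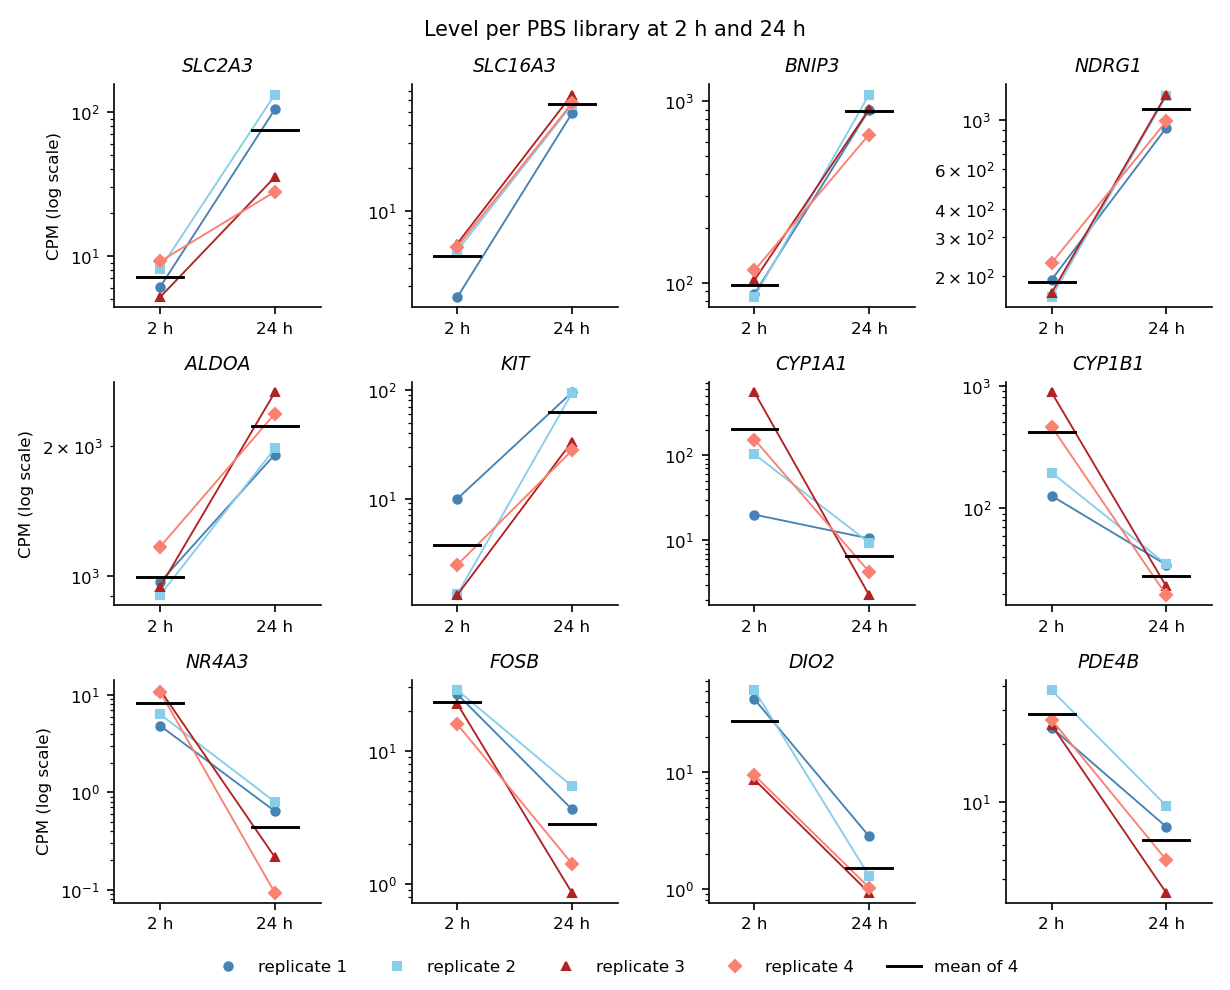
Level of 12 genes in each PBS library at 2 h and 24 h, in CPM on log axes that differ between panels. Lines join libraries of the same replicate number and black bars are means of 4. SLC2A3, SLC16A3, BNIP3, NDRG1, ALDOA and KIT were higher at 24 h in every replicate number, and CYP1A1, CYP1B1, NR4A3, FOSB, DIO2 and PDE4B were lower in every replicate number.

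Along the glycolytic pathway, most steps had a member that rose. HK1, a hexokinase of the first step, went from 455 ± 31.9 to 684 ± 68.6 CPM (SD, n = 4 each; log2 fold change 0.59, SE 0.11, adjusted p = 0.00217). PFKL, the liver-type phosphofructokinase of the committed step, was at 111, 107, 109.8 and 127 CPM at 2 h and 211, 223, 266 and 224 CPM at 24 h, with no overlap (log2 fold change 1.02, SE 0.11, adjusted p = 2.05e-05). PFKP, its platelet-type relative, had a log2 fold change of 0.72 (adjusted p = 0.000428). ALDOA, the aldolase that splits the sugar, was at 969.9, 906, 946 and 1171 CPM in replicates 1 to 4 at 2 h and 1911, 1974, 2660.1 and 2375 CPM at 24 h (log2 fold change 1.16, SE 0.15, adjusted p = 6.21e-05). Each ALDOA level at 24 h exceeded each at 2 h. The triose enzymes TPI1 (log2 fold change 1.0, adjusted p = 0.000239) and GAPDH (1.14, 0.000457) rose about alike, GAPDH from 1357 ± 109 to 2999 ± 408 CPM. Enolase was raised in both its forms, ENO1 by 0.59 (adjusted p = 0.0131) and the neuron-type ENO2 by 2.67 (0.00017) from a low level of 0.880 ± 0.189 CPM. LDHA, the lactate dehydrogenase subunit that turns pyruvate into lactate, rose by 0.91 (adjusted p = 0.00777), and PDK1, the kinase that closes the entry of pyruvate into mitochondria, by 1.03 (0.000138).

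A share of these calls rested on single libraries. GPI (1.05) lost its call without replicate 3 at 24 h (adjusted p = 0.057). PGK1 (0.77) lost it without replicate 1 at 2 h or replicate 3 at 24 h (0.053 and 0.063), and PKM (0.73) without replicate 2 at 2 h or replicate 3 at 24 h (0.058 and 0.068). PFKFB3 (0.55) kept its call only without replicate 4 at either time, MXI1 (1.02) only without replicate 2 at 2 h or replicate 4 at 24 h, and PGAM1 (0.37) only without replicate 1 at 24 h. Without another library their adjusted p reached up to 0.119, 0.129 and 0.142. In the PBS libraries alone 18 members of the list rose. Without 1 library the raised count lay between 17, without replicate 3 at 24 h, and 23, without replicate 4 at 24 h.

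Targets outside glycolysis followed. BNIP3, a mitochondrial protein that marks mitochondria for autophagy and was named by position, was at 87.1, 83.7, 104 and 117 CPM in replicates 1 to 4 at 2 h and 896, 1087, 903 and 656 CPM at 24 h (log2 fold change 3.18, SE 0.34, adjusted p = 1.88e-05). NDRG1, a stress-responsive gene induced by low oxygen in many cell types, was at 192, 161, 168 and 228 CPM in replicates 1 to 4 at 2 h and 919, 1273, 1295 and 983 CPM at 24 h (log2 fold change 2.58, SE 0.31, adjusted p = 4.81e-05). For both genes the lowest library of 24 h lay far above the highest of 2 h. EGLN3, a prolyl hydroxylase that senses oxygen and is itself a HIF target, went from 261 ± 78.6 to 907 ± 209 CPM (log2 fold change 1.80, SE 0.26, adjusted p = 0.000204). Its relative EGLN1 had a log2 fold change of 0.78 (adjusted p = 0.0412), a call that was lost without any 1 of the 8 libraries, with adjusted p between 0.055 and 0.108.

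ERO1A, NDUFA4L2 and STC1, outside the list but known to rise when oxygen is low, were among the 15 largest rises. ERO1A, an oxidase that helps to form disulfide bonds in the endoplasmic reticulum, was at 66.1, 67.1, 89.2 and 77.5 CPM in replicates 1 to 4 at 2 h and 268, 282, 471 and 373 CPM at 24 h (log2 fold change 2.22, SE 0.21, adjusted p = 8.63e-06). All 4 libraries of 24 h lay above those of 2 h. NDUFA4L2, a mitochondrial protein made when oxygen is low, went from 23.2 ± 7.24 to 107 ± 61.5 CPM (log2 fold change 2.21, SE 0.58, adjusted p = 0.019) and lost its call without replicate 3 at 2 h (0.061) or replicate 3 at 24 h (0.073). The secreted glycoproteins STC1 and STC2 rose by 3.21 (adjusted p = 0.000591) and 1.5 (0.000108), STC2, named here from the ATF4 list, from 6.49 ± 0.444 to 18.4 ± 4.89 CPM.

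Not every textbook HIF target passed the test. VEGFA, the vascular growth factor, was at 105, 95.7, 139.9 and 162 CPM in replicates 1 to 4 at 2 h and 106, 115, 172 and 159.8 CPM at 24 h, and the groups overlapped (log2 fold change 0.14, SE 0.26, adjusted p = 0.812). ADM, the peptide adrenomedullin, had a log2 fold change of -0.20 (adjusted p = 0.823), DDIT4, an inhibitor of the growth kinase mTORC1, of -0.33 (0.729), and CA9, a carbonic anhydrase named by position, of 0.43 (0.325). These 4 genes did not move 1 way in all replicate numbers. With the replicate block 29 members of the list rose, where 11.0% of all genes did. Among the added ones were the hexokinase HK2 (0.99, adjusted p = 0.209 without the block and 0.0415 with it) and the collagen prolyl hydroxylase P4HA1 (1.39, 0.123 and 0.000241).

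**Figure D2:**
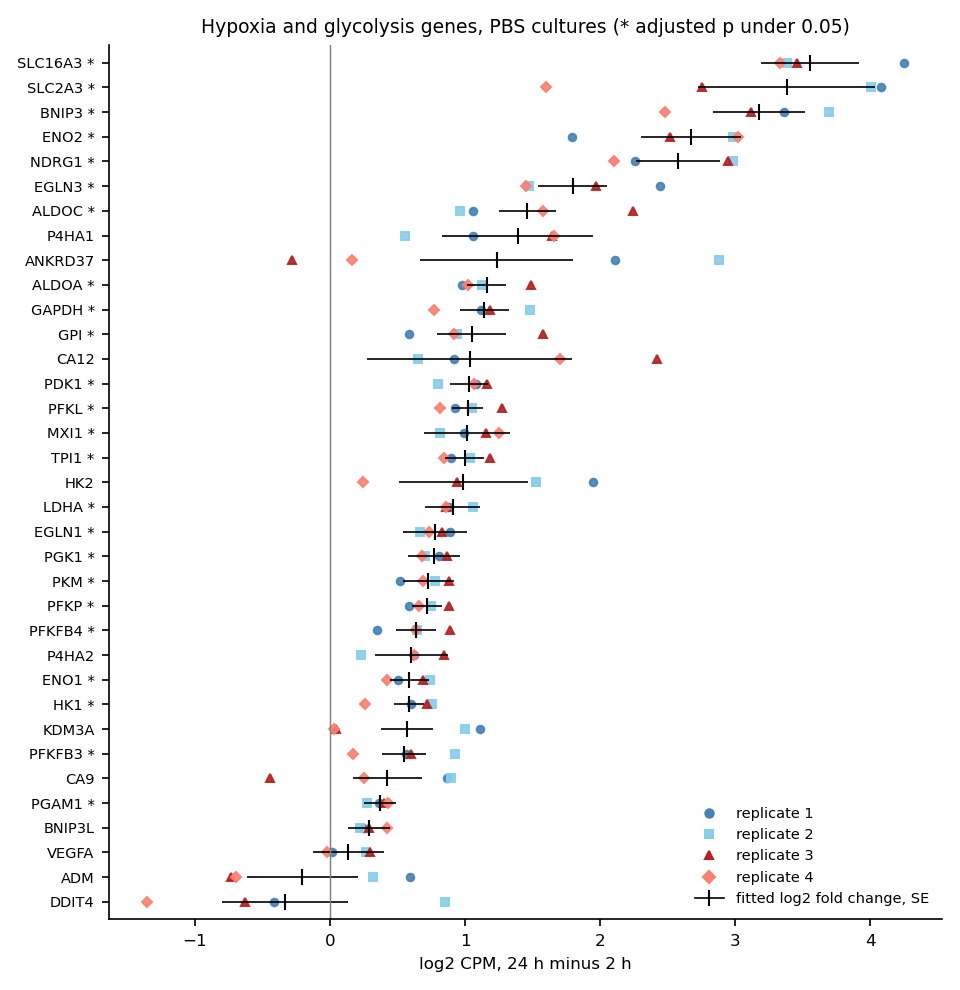
Difference of log2 CPM between 24 h and 2 h for the 35 tested genes of hypoxia and glycolysis, 1 row per gene. Coloured points are the 4 replicate numbers and black ticks with lines are fitted log2 fold changes with their SE. The 24 genes that passed the test lie to the right of 0 in all 4 numbers, and VEGFA, ADM, DDIT4, CA9 and ANKRD37 have points on both sides of 0.

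KIT, the receptor of stem cell factor, had the largest rise of any named gene that passed the rule for naming. It was at 9.97, 1.31, 1.3 and 2.45 CPM in replicates 1 to 4 at 2 h and 94.9, 93.4, 33.4 and 27.7 CPM at 24 h (log2 fold change 4.06, SE 0.89, adjusted p = 0.00689). At 2 h replicate 1 lay above the other 3, and at 24 h replicates 1 and 2 lay above replicates 3 and 4, without overlap between the times. Other large rises were at low levels: NXPH4, a secreted neurexophilin (0.575 ± 0.224 to 5.65 ± 1.12 CPM, log2 fold change 3.29, adjusted p = 0.000177), and NAGS, which makes the activator of the urea cycle (0.333 ± 0.0805 to 1.91 ± 0.473, 2.51, 0.000108). PRSS56, a serine protease, was at 0.0372, 0.250, 0.0700 and 0.0299 CPM at 2 h, below the floor in 3 of the 4 libraries, and at 1.7, 1.57, 0.650 and 0.0933 CPM at 24 h, below it in replicate 4, and its groups overlapped. ZAN, a sperm surface protein (3.01), lost its call without replicates 3 or 4 at 2 h or replicate 2 at 24 h (0.066, 0.051 and 0.069). RNF112 (2.49) lost its own without replicates 1 or 2 at 2 h or replicate 3 at 24 h (0.052, 0.054 and 0.052).

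In the coordinates of the deposited table, SLC16A3 (ENSSSCG00000024018) lies on chromosome 12 at 796885 to 803555, NDRG1 (ENSSSCG00000005944) on chromosome 4 at 8014439 to 8071406, CYP1A1 (ENSSSCG00000001906) on chromosome 7 at 58802880 to 58809775, and NR4A1 (ENSSSCG00000031321) on chromosome 5 at 17399324 to 17411053. The pig assembly behind these positions is not named in the labels.

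The largest fall of any named gene that passed the rule for naming belonged to CYP1A1, the cytochrome that AHR induces most strongly. It was at 20.1, 103, 547 and 153 CPM in replicates 1 to 4 at 2 h and 10.5, 9.4, 2.29 and 4.29 CPM at 24 h. The 4 libraries of 2 h spread from 20.1 to 547 CPM, and all lay above the 24 h libraries (log2 fold change -4.96, SE 1.0, adjusted p = 0.0038). CYP1B1, its relative, was at 126, 195, 878 and 463 CPM in replicates 1 to 4 at 2 h and 34.7, 35.1, 23.2 and 19.7 CPM at 24 h (log2 fold change -3.88, SE 0.58, adjusted p = 0.000289). TIPARP, an AHR-induced enzyme that represses the receptor, was at 306, 367, 714 and 574 CPM at 2 h and 216, 221, 199 and 243 CPM at 24 h, again without overlap (log2 fold change -1.16, SE 0.29, adjusted p = 0.0159). TIPARP lost its call without replicate 3 at 2 h (adjusted p = 0.070).

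These were 3 of 11 genes of the xenobiotic response list (4.88% of all genes fell), of which 0 rose (5.28% of all). The receptor AHR itself had a log2 fold change of -0.17 (adjusted p = 0.596), with overlapping groups. NQO1, a quinone reductase that AHR and NRF2 both induce, was at 1205, 2544, 277 and 174 CPM in replicates 1 to 4 at 2 h and 317, 349, 136 and 114 CPM at 24 h. Within each replicate number NQO1 was lower at 24 h, but replicates 1 and 2 lay far above replicates 3 and 4 at 2 h, and the test without a block did not call it (log2 fold change -2.20, SE 1.13, adjusted p = 0.24; adjusted p = 0.0455 with the block). The fall of the cytochromes was larger in replicates 3 and 4: CYP1A1 changed by -2.63 in replicates 1 and 2 and by -6.73 in replicates 3 and 4 (adjusted p of the difference 0.0225), and CYP1B1 by -2.20 and -4.96 (0.00183).

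Immediate early genes that passed the test were all higher at 2 h. Of 39 such genes tested, 7 fell and 0 rose, against 4.88% and 5.28% of all genes, with a median log2 fold change of -0.31 against -0.01. The 3 NR4A orphan nuclear receptors, which act without a known hormone, were all among them. NR4A3 was at 4.83, 6.32, 11.2 and 10.7 CPM in replicates 1 to 4 at 2 h and 0.642, 0.802, 0.217 and 0.0933 CPM at 24 h (log2 fold change -4.23, SE 0.83, adjusted p = 0.00289). NR4A1 was at 44.4, 20.1, 15.3 and 21 CPM in replicates 1 to 4 at 2 h and 6.61, 7.95, 4.67 and 4.89 CPM at 24 h (log2 fold change -2.06, SE 0.37, adjusted p = 0.00147). In both genes each library of 2 h lay above each of 24 h. NR4A2 fell less (log2 fold change -0.82, SE 0.21, adjusted p = 0.0165) and lost its call without replicate 3 at 2 h or replicates 3 or 4 at 24 h (0.063, 0.058 and 0.057).

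In the AP-1 family, whose members pair as FOS and JUN proteins, FOSB was at 26.7, 28.6, 22.6 and 15.9 CPM in replicates 1 to 4 at 2 h and 3.66, 5.46, 0.866 and 1.43 CPM at 24 h (log2 fold change -3.04, SE 0.75, adjusted p = 0.0138). FOSL2 went from 594 ± 42.8 to 348 ± 80.1 CPM (log2 fold change -0.77, SE 0.15, adjusted p = 0.00232). ATF3, a stress-induced partner of this family, was at 256, 216, 246 and 218 CPM in replicates 1 to 4 at 2 h and 111, 101, 84.4 and 85.6 CPM at 24 h (log2 fold change -1.29, SE 0.16, adjusted p = 5.51e-05). None of these 3 genes overlapped between the times. FOS itself was at 125, 79.9, 94.7 and 79 CPM in replicates 1 to 4 at 2 h and 54.2, 51.3, 21.2 and 25.6 CPM at 24 h, also without overlap, and missed the threshold (log2 fold change -1.31, SE 0.43, adjusted p = 0.0585; adjusted p = 0.00498 with the replicate block). DUSP1, the phosphatase that switches off p38 and JNK, fell by 0.71 on the log2 scale, from 260.0 ± 68.7 to 159 ± 15.5 CPM (adjusted p = 0.00644).

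Of the 39 early genes, 12 were lower at 24 h in all 4 numbers, against 19.5% of all genes, and several others were not. EGR1, a zinc finger factor induced by growth factors, was at 47.1, 47.9, 53 and 37.1 CPM in replicates 1 to 4 at 2 h and 109, 93.4, 33.8 and 42.2 CPM at 24 h. It was higher at 24 h in replicates 1, 2 and 4 and lower in replicate 3 (log2 fold change 0.59, SE 0.35, adjusted p = 0.326). JUNB had a log2 fold change of 0.25 (adjusted p = 0.785) and JUN of -0.30 (0.365). IER3 was lower in all 4 numbers (-0.77, adjusted p = 0.148, and 0.0259 with the block). The block called 9 lowered members in all, where 11.4% of all genes fell.

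Clock genes that passed the test went in both directions. BMAL1, the partner of CLOCK in the activating limb, was at 17.7, 14.5, 22.1 and 21 CPM in replicates 1 to 4 at 2 h and 7.67, 10.2, 9.59 and 12.1 CPM at 24 h (log2 fold change -0.93, SE 0.19, adjusted p = 0.00477). CRY1, a repressor of that pair, was at 29.1, 31.7, 34 and 32.1 CPM in replicates 1 to 4 at 2 h and 22.1, 21, 15 and 15.6 CPM at 24 h (log2 fold change -0.78, SE 0.15, adjusted p = 0.00288). Both were lower at 24 h without overlap. DBP, an output factor switched on by CLOCK and BMAL1, was at 5.06, 5.32, 8.4 and 7.87 CPM in replicates 1 to 4 at 2 h and 10.6, 12.1, 30.6 and 27.1 CPM at 24 h (log2 fold change 1.59, SE 0.45, adjusted p = 0.0294). TEF, a relative of DBP, went from 19.6 ± 2.31 to 29 ± 6.52 CPM (log2 fold change 0.56, SE 0.15, adjusted p = 0.0192).

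Of 26 clock genes tested, 3 rose and 2 fell, against 5.28% and 4.88% of all genes, with a list median of -0.08. DBP lost its call without replicates 1 or 2 at 2 h (0.083 each) or replicates 3 or 4 at 24 h (0.100 and 0.073), and TEF without replicate 1 at 2 h (0.066) or replicates 3 or 4 at 24 h (0.080 and 0.058). The raised count was 1 without replicate 1 at 2 h or without replicates 3 or 4 at 24 h, and 2 without replicate 2 at 2 h. PER1 (-0.07, adjusted p = 0.891), PER2 (0.33, 0.575) and NR1D1 (0.35, 0.626), repressors of the loop, had overlapping groups. NFIL3, which competes with DBP for its sites, was lower in all 4 numbers, without overlap, and was not called (-0.75, 0.132).

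**Figure D3:**
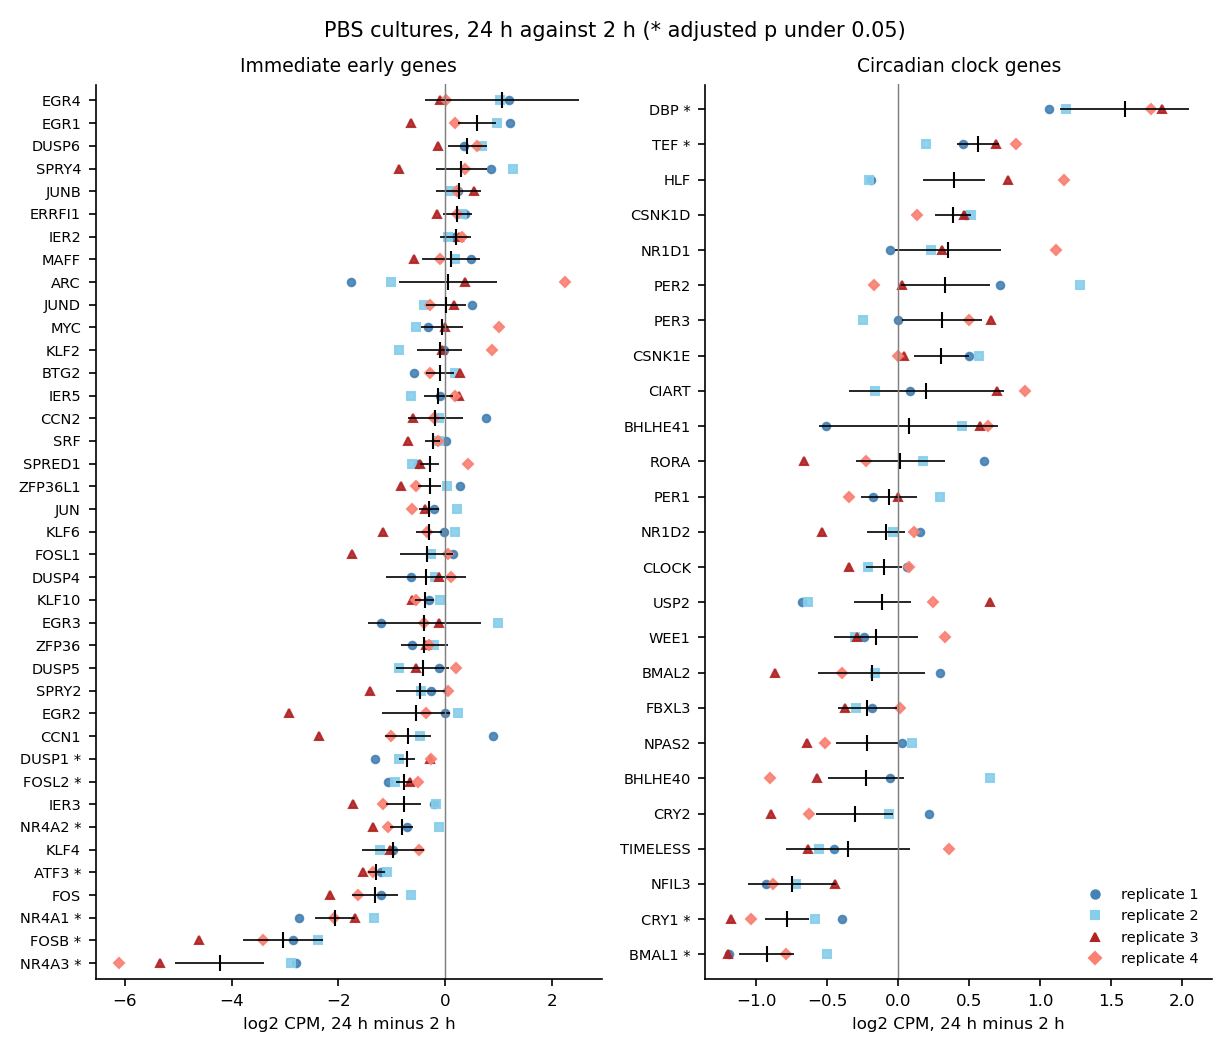
Difference of log2 CPM between 24 h and 2 h for 39 immediate early genes (left) and clock genes (right), drawn as in the plot of hypoxia genes. NR4A3, FOSB, NR4A1 and ATF3 lie left of 0 in all 4 replicate numbers; DBP and TEF lie right of 0 and BMAL1 and CRY1 left of 0 in all 4.

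Further genes among the 15 largest falls had other roles. DIO2, the deiodinase that activates thyroid hormone within cells, was at 42.2, 50.4, 8.61 and 9.4 CPM in replicates 1 to 4 at 2 h and 2.83, 1.29, 0.928 and 1.03 CPM at 24 h (log2 fold change -4.18, SE 0.80, adjusted p = 0.00252). PDE4B, a phosphodiesterase that breaks down cyclic AMP, was at 24.5, 38.2, 25.2 and 26.8 CPM in replicates 1 to 4 at 2 h and 7.48, 9.62, 3.4 and 5.04 CPM at 24 h (log2 fold change -2.17, SE 0.25, adjusted p = 3.45e-05). Neither gene overlapped between the times, although for DIO2 replicates 1 and 2 lay above replicates 3 and 4 at 2 h. AREG, a ligand of the EGF receptor named from the list of such ligands, went from 83 ± 17.6 to 39.2 ± 12.5 CPM (log2 fold change -1.08, SE 0.27, adjusted p = 0.0136), with the call lost without replicate 2 at 2 h (0.053) or replicate 2 at 24 h (0.055). PTGFR, the receptor of prostaglandin F2 alpha, had a log2 fold change of -1.99 (adjusted p = 0.0308) and lost its call without replicates 1 or 3 at 2 h or 1 or 2 at 24 h (up to 0.0976).

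The rest of the 15 largest falls were mostly at low levels. SDR16C5, an enzyme that oxidises retinol, went from 3.76 ± 0.377 to 0.610 ± 0.0493 CPM (log2 fold change -2.62, SE 0.43, adjusted p = 0.000686). CLIC2, of the chloride intracellular channel family, fell by 2.38 (adjusted p = 0.000251), and PREX2, an exchange factor of the GTPase RAC, by 2.21 (0.000273). VEPH1 was at 2.9, 5.76, 1.05 and 0.658 CPM at 2 h, and at 24 h all libraries but replicate 2 were below the floor (0.0642, 0.401, 0.0309 and 0.0311 CPM). LRRN3, a leucine-rich repeat membrane protein, fell by 2.11 (0.000231). VSNL1, a neuronal calcium sensor, fell by 1.89 (0.0118), a call lost without replicate 2 at 2 h (0.056). FGF1, a fibroblast growth factor, overlapped between the times and lost its call without replicates 3 or 4 at 2 h or replicates 1, 2 or 3 at 24 h (0.065 to 0.123).

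Some genes that build ribosomes were lower at 24 h by small amounts. Of 33 ribosome biogenesis genes 8 fell and 0 rose, against 4.88% and 5.28% of all genes. In all 4 numbers 22 were lower, against 19.5% of all, and the median was -0.32. NCL, the nucleolar protein nucleolin, was at 374, 326, 392 and 368 CPM in replicates 1 to 4 at 2 h and 295, 271, 238 and 253 CPM at 24 h (log2 fold change -0.47, SE 0.09, adjusted p = 0.00308). Its groups did not overlap. NOP56, of the box C/D particle that methylates ribosomal RNA, fell by 0.63 (adjusted p = 0.00652) and TSR1, of the small subunit's assembly, by 0.58 (0.00984). The replicate block called 13 lowered members (11.4% of all genes), and the PBS libraries alone 1. The count was 4 without replicate 1 at 2 h, 5 without replicate 3 at 2 h, and 3 without replicate 2 or replicate 3 at 24 h.

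Chaperone and amino acid genes fell in part. HSPA8, the constitutive cytosolic chaperone HSC70, was at 1372, 1681, 1627 and 1529 CPM in replicates 1 to 4 at 2 h and 805, 716, 805 and 1081 CPM at 24 h (log2 fold change -0.87, SE 0.14, adjusted p = 0.000774). Its levels at 24 h were all below those at 2 h. AHSA1, which activates the ATPase of HSP90, fell by 0.32 (adjusted p = 0.00187). In total, 4 of 18 heat shock protein genes fell and 0 rose (4.88% and 5.28% of all genes), and 9 fell with the block (11.4% of all). In the PBS libraries alone 1 fell. The lowered count was 2 without replicate 1 or 2 at 2 h and 2 without replicate 2, 3 or 4 at 24 h. In the endoplasmic reticulum, the cochaperones DNAJB11 and DNAJC3 fell by 0.62 (adjusted p = 0.000374) and 0.38 (0.0113) and EDEM1, which directs misfolded glycoproteins to degradation, rose by 0.42 (0.0064). Of 33 targets of ATF4, the factor of the amino acid and stress response, 5 fell, the cystine transporter SLC7A11 (-1.19) and 4 tRNA synthetases (EPRS1, SARS1, GARS1 and MARS1, -0.48 to -0.32), and STC2 rose, against 4.88% and 5.28% of all genes. With the block 12 members fell, against 11.4% of all, and in the PBS libraries alone 1. The lowered count was 0 without replicate 1 at 2 h or replicate 2 or 3 at 24 h, 1 without replicate 2 at 2 h or replicate 1 at 24 h, 2 without replicate 3 and 3 without replicate 4 at 2 h, and 4 without replicate 4 at 24 h.

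Oxidant defence and lipid genes that passed the test mostly fell. The transcript of the regulator NFE2L2 (NRF2) was at 207, 239, 229.7 and 183 CPM in replicates 1 to 4 at 2 h and 154, 134, 136 and 142 CPM at 24 h (log2 fold change -0.60, SE 0.13, adjusted p = 0.00666), without overlap. Of 30 genes of this defence, 4 fell (4.88% of all genes), 19 were lower in all 4 numbers (19.5% of all) and 12 fell with the block (11.4% of all), with a median of -0.52. In the PBS libraries alone 2 fell. The lowered count was 1 without replicate 3 at 2 h or replicate 2 or 3 at 24 h, and 2 without replicate 1 at 2 h or replicate 1 or 4 at 24 h. Of 26 genes of cholesterol synthesis, HSD17B7 (-0.86) and CYP51A1 (-0.72) fell and the regulator SREBF1 rose (0.60), counts near the 4.88% and 5.28% of all genes. Of the list, 16 were lower in all 4 numbers (19.5% of all genes) and 12 fell with the block (11.4% of all). All 3 calls depended on single libraries, with adjusted p of up to 0.0551, 0.0845 and 0.103 when 1 was left out: replicate 1 at 2 h for each, replicate 2 at 2 h and replicates 2 and 3 at 24 h for CYP51A1 and SREBF1, and also replicate 3 at 2 h and replicate 1 at 24 h for SREBF1. Of 20 fatty acid genes 5 fell (4.88% of all genes), the elongases ELOVL7 (244 ± 48.7 to 141 ± 15.8 CPM, -0.79, adjusted p = 0.00652) and ELOVL5 (-0.64, 0.012) among them, and DGAT1, which completes triglycerides, rose (0.51, 0.0102). The lowered count was 1 in the PBS libraries alone, 2 without replicate 1 or 2 at 2 h or replicate 3 at 24 h, and 3 without replicate 2 at 24 h.

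Ion and water transport, the function that sets the liquid film on airway epithelium, had 4 lowered and 0 raised genes of 27 (4.88% and 5.28% of all genes), with 15 lower in all 4 numbers (19.5% of all) and a median of -0.45. AQP3, a water and glycerol channel, was at 1346, 1594, 1963 and 1317 CPM in replicates 1 to 4 at 2 h and 417, 522, 863 and 696 CPM at 24 h (log2 fold change -1.32, SE 0.25, adjusted p = 0.00265). Each library of 24 h lay below each of 2 h. SLC12A2, the cotransporter that loads cells with chloride, fell by 0.74 (adjusted p = 0.0198), a call lost without replicate 1 (0.051) or 3 (0.075) at 2 h or replicate 3 at 24 h (0.069). The chloride channel CFTR was at 120.1, 58.3, 89.8 and 98.1 CPM in replicates 1 to 4 at 2 h and 65.6, 46.8, 38.2 and 49.5 CPM at 24 h, with overlap (log2 fold change -0.87, SE 0.24, adjusted p = 0.0262), and kept its call only without replicate 2 at 2 h or replicate 1 at 24 h (0.051 to 0.092 otherwise). With the replicate block 11 members fell and 3 rose (11.4% and 11.0% of all). The lowered count was 2 in the PBS libraries alone, 2 without replicate 1 or 3 at 2 h, 2 without replicate 4 at 24 h and 1 without replicate 3 at 24 h.

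Single genes of other pathways passed the test. HES1, a Notch-responsive repressor, was at 104, 82.9, 88.5 and 83.7 CPM in replicates 1 to 4 at 2 h and 38.3, 43.4, 47 and 51.2 CPM at 24 h (log2 fold change -1.0, SE 0.18, adjusted p = 0.00147), the only member of the Notch, Wnt and BMP list of 34 to be called in every fit without 1 library. AXIN2, a Wnt target, was under 1 CPM in every library (0.632, 0.594, 0.595 and 0.748 CPM at 2 h and 0.161, 0.247, 0.124 and 0.156 CPM at 24 h) and also fell, a call lost without replicates 1, 3 or 4 at 24 h (0.054, 0.068 and 0.051). SLC30A1, a zinc exporter, went from 103 ± 13.5 to 61.8 ± 7.63 CPM (log2 fold change -0.74, SE 0.10, adjusted p = 0.000183). TFRC, the transferrin receptor, changed by -2.14 in replicates 1 and 2 and -0.13 in replicates 3 and 4 (adjusted p of the difference 0.00166), and lost its call without replicate 1 or 2 at either time (0.087 to 0.139). ANGPTL4, a secreted lipase inhibitor, rose by 0.63 (0.00327), and GADD45B and CDC42EP3 of the YAP target list fell by 0.64 (0.0106) and 0.80 (0.00985).

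Inflammatory and interferon genes gave few calls, against 5.28% of all genes raised and 4.88% lowered. Of 40 inflammatory mediators and NF-kB inhibitors, 1 rose (NFKBIE, 33 ± 4.49 to 46.3 ± 4.18 CPM, log2 fold change 0.49, adjusted p = 0.0356) and 1 fell (IL6, at 0.149, 0.344, 0.315 and 0.0599 CPM at 2 h and 0, 0.0308, 0.0309 and 0.0622 CPM at 24 h). IL6 was below the floor in every library of 24 h and in replicate 4 of 2 h, did not move 1 way in all 4 numbers, and kept its call only without replicate 4 at 2 h (0.053 to 0.133 otherwise). NFKBIE, an inhibitor of NF-kB, kept its call only without replicates 2 or 4 at 2 h or replicate 3 at 24 h (0.061 to 0.119 otherwise). With the replicate block 3 members rose and 4 fell (11.0% and 11.4% of all). The median over the list was 0.02. Of 32 interferon-stimulated genes 0 rose and 0 fell, of 33 TGF-beta and matrix genes 0 and 0, and of 38 mitotic genes 0 and 0. The mean level of the mitotic list ranged from 2.4 to 3.99 log2 CPM at 2 h and from 1.98 to 3.52 at 24 h. At an unadjusted p under 0.05 these 3 lists had 2, 1 and 1 genes, and DESeq2 called 1, 0 and 1. The replicate block called 4 raised TGF-beta and matrix genes, 1 lowered interferon-stimulated gene and 1 lowered mitotic gene.

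**Figure D4:**
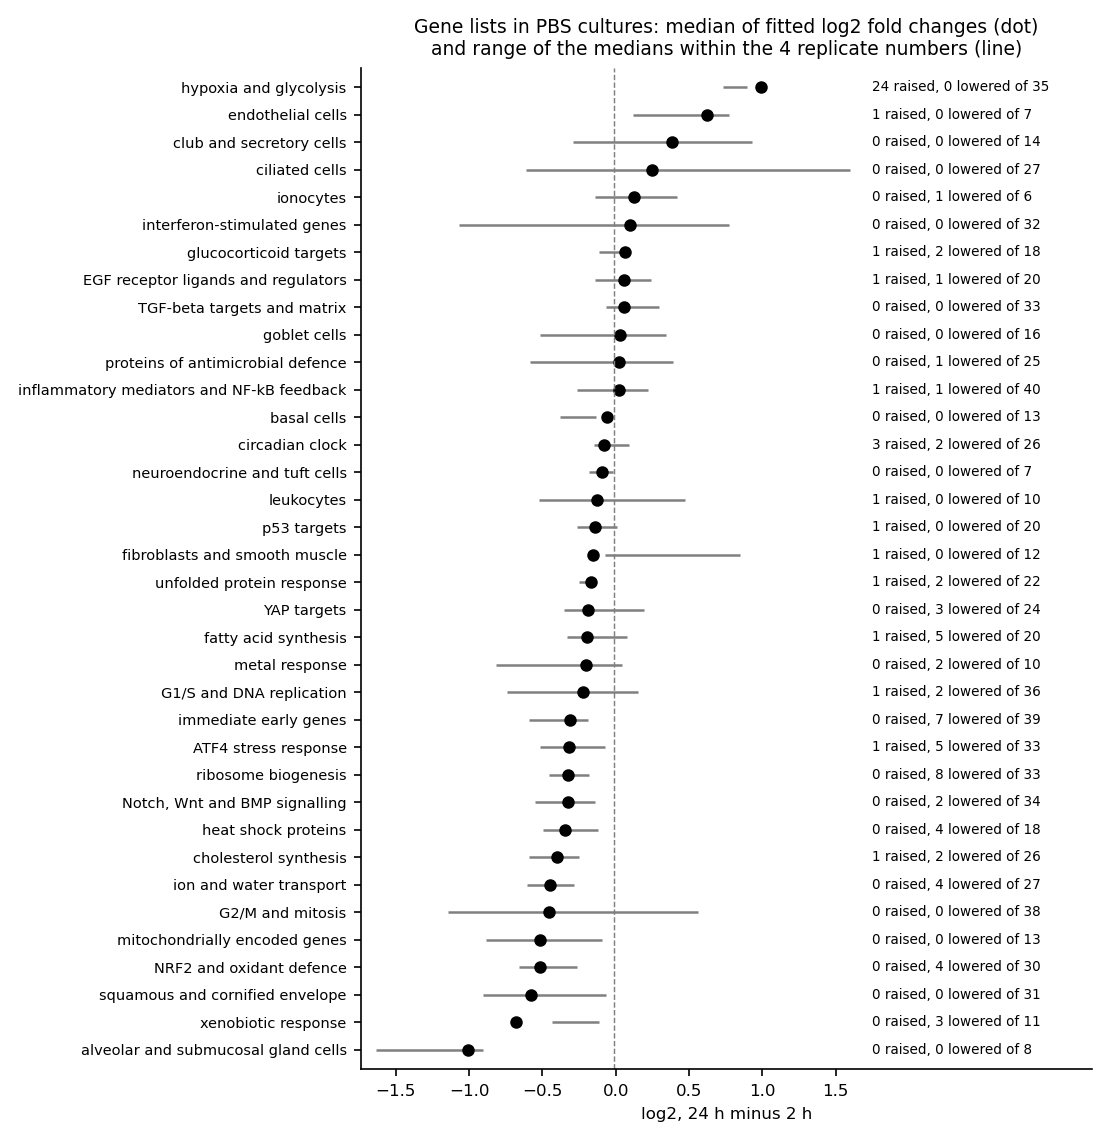
Median of the fitted log2 fold changes (24 h minus 2 h) of 36 gene lists in PBS cultures (dots), with the lowest and highest median within the 4 replicate numbers (lines) and the counts of members that passed the test. The dashed line is the median of all genes tested. A dot can lie outside its line, since the fit and the differences within numbers are computed apart. Hypoxia and glycolysis stands at 0.99, with 24 of 35 genes raised.

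Markers of the epithelium's own cell types gave few calls. Among basal (13 genes tested), ciliated (27), club and secretory (14), goblet (16) and squamous (31) markers, 0 rose and 0 fell. Of all genes 5.28% rose and 4.88% fell. At those shares each list alone would hold few calls, while the 5 lists together would hold more than the 0 seen. The replicate block called 4 lowered basal, 1 raised ciliated, 3 raised and 1 lowered club, 1 raised goblet and 3 lowered squamous genes. With the block, 11.0% of all genes rose and 11.4% fell. At an unadjusted p under 0.05 edgeR gave 3, 2, 3, 1 and 5 genes in these 5 lists, and DESeq2 called 0, 1, 0, 1 and 2. Of 6 ionocyte markers tested 1 fell, CFTR (4.88% of all genes fell), while the list median was 0.13. The mean log2 CPM of the ionocyte list was higher at 24 h in all 4 numbers. It was low, at 0.09 to 0.85 at 2 h and 0.17 to 1.56 at 24 h (exact permutation p = 0.286, two-sided). Of 7 neuroendocrine and tuft cell markers 0 were called. Basal cell genes had a mean log2 CPM of 6.68 to 6.96 at 2 h and 6.20 to 6.62 at 24 h, without overlap. Squamous genes were at 5.34 to 7.24 and 5.25 to 6.36, lower at 24 h in all 4 numbers. Over 4 against 4 libraries an exact permutation test (two-sided) cannot go below 0.0286, and basal cell genes reached that limit. Adjusted over 12 such measures it became 0.343, the lowest of them. A single measure therefore could not pass 0.05 here even with complete separation of the times.

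Markers of other cell types were measured as sums. The summed level of 12 endothelial markers was 142 to 306 CPM at 2 h and 360.1 to 544 at 24 h, most of it KDR, the VEGF receptor (179, 86.9, 255 and 250.0 CPM in replicates 1 to 4 at 2 h and 339, 358, 509 and 386 CPM at 24 h; log2 fold change 1.05, SE 0.36, adjusted p = 0.074, and 0.00489 with the replicate block). TIE1 rose (1.81 ± 0.413 to 4.79 ± 1.6 CPM, adjusted p = 0.00526), PECAM1 was at 1.89 to 2.44 and 2.65 to 3.77 CPM (adjusted p = 0.0533, and 0.038 with the block), and ERG was at 0 in all 8 libraries. Of 7 endothelial markers tested, 1 rose in the fit without a block (5.28% of all genes), 3 with it (11.0% of all) and 3 by DESeq2 (981 of all 14172 genes). Fibroblast and smooth muscle markers summed to 647 to 1615 CPM at 2 h and 1075 to 1734 at 24 h. Most of it was THY1 (424 to 1451 CPM at 2 h and 619 to 1573 at 24 h) and TAGLN (130 to 190 and 133 to 436). CNN1 was at 0 in all 8 libraries. Of 12 such markers tested 1 rose, MYH11, against 5.28% of all genes. It was at 0.389 to 0.455 CPM at 2 h and 0.482 to 1.11 CPM at 24 h, and kept its call only without replicate 1 at 24 h. Leukocyte markers summed to 42.7 to 119 CPM and 55.3 to 147, with 5 of 24 at 0 in every library. CD68, a lysosomal protein of macrophages that other cells also make, rose from 6.96 ± 2.27 to 18 ± 4.2 CPM (log2 fold change 1.37, SE 0.26, adjusted p = 0.00232). Alveolar and gland markers summed to 616 to 3197 CPM at 2 h and 589 to 1533 at 24 h. Of 8 such markers tested 0 were called, and 3 fell with the block (11.4% of all genes). In all 4 numbers 5 were lower at 24 h (19.5% of all). The mean log2 CPM of the list was also lower in each number, with a difference of -0.988 (exact permutation p = 0.286, two-sided). The list median was 0.076 without replicate 2 at 2 h, and -1.95 to -0.706 without any other 1 library. The part of such cells in the changes above was not tested.

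The 2 sets of replicates shared many time effects and differed in others. With a term for each set, replicates 1 and 2 had 1645 genes raised (11.6%) and 1946 lowered (13.7%), and replicates 3 and 4 had 1209 (8.53%) and 1240 (8.75%). Both sets called 953 genes, 835 of them with the same sign. The time effect itself differed between the sets in 1327 genes (9.36%), of which 738 were more positive and 589 more negative in replicates 3 and 4. Among genes that rose or fell over all 4 numbers, 49 of 748 and 66 of 692 had such a difference.

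The median of hypoxia genes was 0.89 in replicates 1 and 2 and 0.79 in replicates 3 and 4, and 3 of 35 differed between the sets, near the 9.36% of all genes. ANKRD37, an ankyrin repeat protein, changed by 2.49 in replicates 1 and 2 and -0.07 in replicates 3 and 4 (adjusted p of the difference 0.0113), KDM3A, a histone demethylase, by 1.06 and 0.04 (0.00113), and P4HA1 by 0.78 and 1.65 (0.0118). NR4A3 fell further in replicates 3 and 4 (-6.11, against -2.94; 0.0018). CRISPLD2, a secreted glycoprotein, was at 3.9, 4.82, 4.76 and 4.13 CPM in replicates 1 to 4 at 2 h and 4.46, 5.4, 0.680 and 0.436 CPM at 24 h, a log2 change of 0.18 in replicates 1 and 2 and -2.98 in replicates 3 and 4 (0.00851). Y-linked genes and mitochondrial share separate the same libraries, and their part in these differences was not tested.

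Cultures with flagellin, and with SB203580 plus flagellin, were compared between the same times. Their libraries entered the same fit and so share its estimate of the spread with the PBS comparison, although the fold changes come from different libraries. Flagellin cultures had 599 genes raised (4.23%) and 521 lowered (3.68%), and cultures with both agents 525 (3.70%) and 450 (3.18%). Of the 748 genes raised in PBS, 412 were raised with flagellin (55.1% of the PBS genes and 68.8% of the flagellin genes) and 351 with both agents (46.9% and 66.9%). Of the 692 lowered in PBS, 311 (44.9% and 59.7%) and 282 (40.8% and 62.7%) were. The opposite call was made for 1 gene raised in PBS in each of the other comparisons and for 0 genes lowered in PBS.

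The time effects of genes described above are set side by side for the 3 treatments. SLC16A3 rose by 3.55 in PBS, 3.30 with flagellin and 2.87 with both agents, BNIP3 by 3.18, 3.47 and 3.35, and NDRG1 by 2.58, 2.69 and 2.97. The hypoxia list had 23 and 20 raised members in those cultures and 0 and 0 lowered. BMAL1 changed by -0.93, -0.98 and -0.94, NR4A1 by -2.06, -2.86 and -2.32, and FOSB by -3.04, -3.30 and -3.06. CYP1A1 spread more, with -4.96, -2.94 and -1.10, though its differences between treatments did not pass the test (adjusted p = 1 and 1).

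The time effect differed between flagellin and PBS in 6 genes (0.0423%), each more negative with flagellin. NFKBIE and NFKBID, inhibitors of NF-kB, changed by 0.49 and 0.74 in PBS and by -1.24 and -1.96 with flagellin (adjusted p of the difference 0.000567 and 0.00287). CD83, a surface glycoprotein of activated cells, changed by 0.02 and -3.12 (0.000601), and the interferon regulatory factor IRF1 by 0.31 and -2.51 (0.00801). SPATA2, an adaptor of the deubiquitinase CYLD, changed by 0.14 and -1.31 (0.0245), and the zinc finger factor ZNF263 by 0.05 and -1.19 (0.0006). In PBS, CD83 was at 1.6, 2.63, 1.82 and 1.5 CPM at 2 h and 1.48, 2.19, 2.26 and 1.74 CPM at 24 h, with overlap, and NFKBIE was the 1 gene of the 6 that was called between the times. For SB203580 plus flagellin, edgeR called 0 genes (248 at an unadjusted p under 0.05) and DESeq2 called 5. With the replicate block these counts were 27 for flagellin and 8 for both agents.

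**Figure D5:**
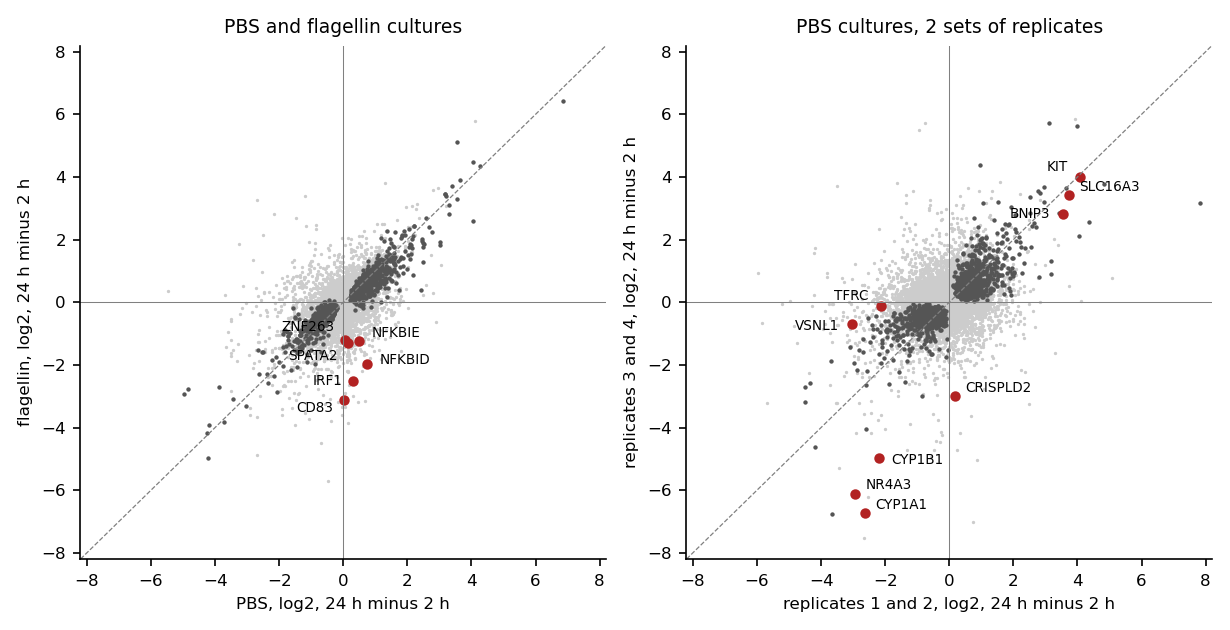
Fitted log2 fold changes between 2 h and 24 h, 1 point per gene (14172 genes tested), with genes called in PBS in dark grey and named genes in red. Left, PBS (horizontal) against flagellin cultures (vertical), with the 6 genes whose time effect differed. Right, replicates 1 and 2 (horizontal) against replicates 3 and 4 (vertical) of PBS; the dashed line marks equal change, near which SLC16A3, BNIP3 and KIT lie, while CYP1A1, CYP1B1, NR4A3 and CRISPLD2 lie below it.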

How the data were processed

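RNA-seq was measured in 24 libraries of pig bronchial cultures, 4 in each of 6 groups, of which the 8 PBS libraries carry the results. The authors deposited whole-number counts of reads per gene, with STAR 2.4.0a, featureCounts and Subread 1.4.6-p1 named per the submitters' processing notes. Those notes name a mouse genome build, GRCm38, while the deposited count table lists pig genes. For the pig assembly and the strand setting no source was at hand, so genes that overlap, run antisense or have near-identical copies are uncertain. Symbols came from identifiers for 14857 of 25880 pig genes and from position against RefSeq Sscrofa11.1 (overlap of at least 0.5) for 1606; where both gave a name, 94.7% of 12522 were equal. No sequences were used here.

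All pig genes that passed filterByExpr (14172) were fitted in R 4.3.3 with edgeR 4.0.16 over the 6 groups (18 residual degrees of freedom, TMM factors, robust quasi-likelihood F test, Benjamini-Hochberg adjustment, threshold 0.05), with no replicate block. CPM values use TMM-scaled library sizes, differences within a replicate number a prior count of 2, and the floor of detection 3 counts, which covers counting error only. Differences between the sets of replicates came from a fit of group and set (12 residual degrees of freedom). The fits were tested on simulated data.

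Same-numbered libraries of 2 h and 24 h deviated together (correlations of 0.648, 0.423, 0.462 and 0.535 for numbers 1 to 4). The numbers were taken as pairs, which the labels do not state. Numbers 1 and 2 at 2 h correlated best with their own number at 24 h. Number 3 at 2 h correlated best with number 4 at 24 h (0.527), and number 4 with number 3 (0.568). For replicates 3 and 4 the data thus do not bear out the pairing by number. The replicate block and the counts over all 4 numbers rest on that pairing. Named genes were the 15 largest rises and falls with at least 1 CPM in a group, at most 8 called members or the first 3 symbols of a list, all clock and immediate early genes, and the 5 largest per direction of each called difference in time effect; ZNF263, the sixth of the flagellin difference, was added after its values were seen. More members than this rule allows were named from the hypoxia and glycolysis list, called and uncalled, and from the markers of other cell types. The comparison, the rule and the gene lists were chosen with earlier results of these data known. Results of 3 genes are not reported here. A list of replication-dependent histone genes, 2 of them tested, was left out after the data were seen. Alternatives were another normalization, other filters, DESeq2 1.42.0, the replicate block, a term for the replicate set, PBS libraries alone and each library left out.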

Additional observations from a re-analysis of the deposited data

Results flagged for a closer look

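In 336 groups of 4 libraries checked, 15 had 1 library far from the other 3; chance flags about 1 group in 20. Among hypoxia genes, EGLN3 was low in replicate 1 at 2 h (144 CPM, against 293 to 311) and high in replicate 3 at 24 h (1220 CPM, against 781 to 825), and PDK1 was high in that same 24 h library (101 CPM, against 77.0 to 78.8). KIT was high in replicate 1 at 2 h (9.97 CPM, against 1.30 to 2.45). AHRR, the repressor of AHR, was at 0.371 CPM in replicate 3 at 24 h, against 4.45 to 4.75 in the others. In replicate 3 at 24 h the mean level of G1/S genes was also low (2.58 log2 CPM, against 3.44 to 3.50).

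Replicate 2 at 2 h was the highest of its group for AREG (109 CPM), TYMS (82.2 CPM), SFTPD (336 CPM) and the mean of basal cell genes (6.96 log2 CPM). Replicate 4 at 24 h was the highest for NOP56 (61.8 CPM), FADS2 (3.36 CPM) and OSGIN1 (39.1 CPM), replicate 1 at 24 h for HSPD1 (127 CPM), and replicate 2 at 24 h for VEPH1 (0.401 CPM).

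The time effect with flagellin minus that in PBS passed the test for CD83 (-3.14 on the log2 scale), IRF1 (-2.82), NFKBID (-2.70), NFKBIE (-1.73), SPATA2 (-1.45) and ZNF263 (-1.24). Between replicates 3 and 4 and replicates 1 and 2 of PBS, the time effect differed for 18 of the genes with values. It was more negative in replicates 3 and 4 for CYP1A1 (-4.11), NR4A3 (-3.16), CRISPLD2 (-3.16), CYP1B1 (-2.76), ANKRD37 (-2.55), EGR1 (-1.34), IER3 (-1.26), KDM3A (-1.02), TIPARP (-0.92), TSR1 (-0.64), CRY1 (-0.62), SPRY1 (-0.53) and SLBP (-0.50). It was more positive for VSNL1 (2.35), TFRC (2.01), LRRN3 (1.30), P4HA1 (0.87) and DUSP1 (0.83).

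The count table also lists features of bacteria, which no comparison used. They reached 51.4 CPM in replicate 1 at 2 h, with 28.0, 46.3 and 4.36 CPM in replicates 2 to 4, and 6.09 to 10.1 CPM in the PBS libraries of 24 h.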

How the results depend on the processing

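Of 132 genes checked under the alternatives, 109 were called. Of these, 48 kept their call in every alternative except those that joined the block with omitted libraries, which were not counted, and 0 changed direction in any. Raised and lowered genes numbered 1565 and 1618 with the replicate block, 2099 and 2354 with a term for the replicate set, and 306 and 226 in the PBS libraries alone. Leaving out 1 library gave 464 to 682 and 371 to 648. The block with libraries omitted was chosen after seeing the data. Without replicate numbers 1 to 4 in turn it gave 1110, 1023, 706 and 1251 raised and 972, 959, 673 and 1173 lowered. Without replicates 1, 2, 3 or 4 at 2 h it gave 1199, 1227, 1135 and 1387 raised and 1226, 1188, 1152 and 1460 lowered, and without replicates 1, 2, 3 or 4 at 24 h it gave 1241, 1040, 1192 and 1589 raised and 1204, 998, 1191 and 1509 lowered. With the PBS libraries alone it gave 603 and 585. Time effects differed between flagellin and PBS in 6 genes, 27 with the block, 11 by DESeq2 and 52 with the set term; with SB203580 as well these were 0, 8, 5 and 20. Immediate early genes had 7 lowered members and 11 with the set term. Ribosome biogenesis had 8, with 13 under the block, 18 with the set term, 1 in PBS alone, 5 in PBS alone with the block and 3 to 7 without 1 library. With the block it had 13 without replicate 2, 2 without replicate 3, 15 without replicate 2 at 2 h and 16 without replicate 4 at 24 h. ADM and PER1, which were not called, changed sign. Leaving out 1 library gave ADM -0.390 to 0.011 and PER1 -0.134 to 0.012, positive without replicate 3 and without replicate 1 at 2 h. With the block, ADM was 0.066 without replicate 3 and 0.052 without replicate 4, and PER1 0.050 without replicate 4 and 0.046 without replicate 4 at 2 h. The cause of these shifts was not tested. Below the floor of 0.0879 to 0.114 CPM a change was not detectable at this depth.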
